A study of Mus musculus with 12 samples.

Results

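The comparison set the hippocampal RNA of 5xFAD mice against that of wild-type (WT) mice, gene by gene. Its members were all 24318 genes of the deposited gene table, in 3 libraries labelled WT and 3 labelled 5xFAD, which are 6 of the 12 samples of the study. The account centres on genes outside 8 glial lists (microglia, astrocytes, oligodendrocytes, complement, antigen presentation and lysosome), which together matched 709 genes. After a filter on low values, 13906 genes outside these lists were tested in the 6 libraries.

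The 5xFAD strain is a model of amyloid deposition that expresses human transgenes, amyloid precursor protein among them, all with mutations found in inherited Alzheimer's disease. Regulatory sequence of Thy1, a surface glycoprotein of neurons, drives the transgenes. Amyloid plaques in such brains draw in microglia, the resident phagocytes, and the astrocytes around them become reactive. Bulk tissue RNA mixes these cells with neurons, vessels, meninges and any adhering choroid plexus, the epithelium that secretes cerebrospinal fluid.

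All libraries came from the hippocampus of 7-month-old mice, with the genotype (5xFAD or WT) as the labelled difference. The labels give no strain background and no treatment, and they do not say that the samples were separate animals. The p-values therefore describe the spread among these libraries, and that spread may be technical in part. Ribosomal RNA was depleted before sequencing, so transcripts without a poly(A) tail could be read.

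The values are FPKM, fragment numbers corrected for transcript length and for library size, so they are shares of a library and not amounts. In bulk tissue, fewer cells of a type and less RNA per cell cannot be told apart. Total FPKM ran from 385214 to 412157 per library, with 17221 to 17679 genes above 0. Relative depth, read from the lowest values, was 0.793 in WT replicate 2 and up to 1.15 times that of WT replicate 1. The 7 hippocampal markers summed to 237 to 259 FPKM and the 4 neuronal markers to 1605 to 1818 FPKM, none of them at 0. The 8 choroid plexus markers summed to 2875 FPKM in WT replicate 1, 501 in the library labelled 5xFAD replicate 3 and 44.2 to 75.3 in the other 4. Blood markers summed to 69.0 to 245 FPKM without separating the genotypes. Ddx3y, a Y-linked gene, was at 18.7 and 16.2 FPKM in replicate 1 of WT and of 5xFAD and at 0.0204 or less elsewhere. Replicate 1 of each genotype therefore differed in sex from the others. The spread within each genotype thus included a sex difference, which the main comparisons did not model.

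Thy1 served as the check of the labels, because the transgenes use its regulatory sequence. It stood at 296, 308 and 340 FPKM across WT, at 1136 and 1172 over 5xFAD replicates 1 and 2, and at 305 in the library labelled 5xFAD replicate 3. That library sits among the WT values, against its label. It is kept under its label in the 6-library comparison, left out in the 5-library comparison, and given apart as its difference from the WT mean. Its glial genes also lay at WT level. The choice to leave it out was made with its Thy1, glial and other values known. App, the mouse gene of amyloid precursor protein, stood at 560, 480 and 500 FPKM across WT and 521, 461 and 498 across 5xFAD, with overlapping groups. Gigyf2, a translational repressor, stood at 22.1, 22.2 and 23.03 FPKM across WT, then 20.04, 20.7 and 23.3, and neither gene was called. Differences are on the log2(FPKM + 1) scale, which understates the change of low genes, and a gene was called at a limma adjusted p under 0.05.

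Over 6 libraries, 0 of 14500 genes tested were called higher in 5xFAD (0.0%) and 1 was called lower (0.0069%). At an unadjusted limma p under 0.05, 348 genes were higher (2.4%) and 76 lower (0.524%). The called gene was Malat1, a long non-coding RNA of nuclear speckles. It was listed at 3608, 3288 and 3425 FPKM in WT and at 0 in all 3 libraries labelled 5xFAD. In this gene the library labelled 5xFAD replicate 3 sits with the other 2 of its label. Among the 16 genes listed at 0 in every 5xFAD library and above 0 in every WT library, the next highest WT mean was 0.290 FPKM. An exact 0 of so abundant an RNA can be a failed estimate, so no fold is given. Neat1, the scaffold RNA of paraspeckles, stood at 72.7, 48.0 and 39.5 FPKM across WT and at 97.4, 72.2 and 42.7 in 5xFAD, with overlapping groups. Of 32 long non-coding RNAs tested in 6 libraries, Malat1 alone was called, and the median difference was -0.04 beside -0.01 over all genes.

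Over 5 libraries, 172 of 14527 genes tested were called higher (1.18%) and 2 lower (0.0138%). At an unadjusted limma p under 0.05 the shares were 4.96% higher and 0.943% lower, and the groups did not overlap in 10.6% of genes on the higher side and 7.5% on the lower. The glial lists held 144 of the rises, out of 601 tested genes in them. Outside them 28 of 13926 genes rose (0.201%) and 2 fell (0.0144%). The median rise of the 28 was 1.09, and 13 of them had a WT mean under 1 FPKM. The number of rises outside the lists was 34 without WT replicate 1, 11 without WT replicate 2, 6 without WT replicate 3, 3 without 5xFAD replicate 1 and 3 without 5xFAD replicate 2. Pisd-ps1 and Thy1 were the 2 called in all 5 of these fits, and 26 were not. Pisd-ps1 lay under the 0.5 FPKM filter in WT and passed it only through 5xFAD replicates 1 and 2. The same held at least for Glycam1, St14, Wfdc17, Olfr111, Fblim1 and Siglecf. The calls of these genes and their persistence are therefore no support. The library left out was chosen on its Thy1 and its glial genes at WT level. The calls of Thy1 and of genes in the glial lists, and their persistence, describe that choice and support nothing. The rises included actin-binding proteins, regulators of transcription, secreted proteins and signalling adaptors.

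**Figure D1:**
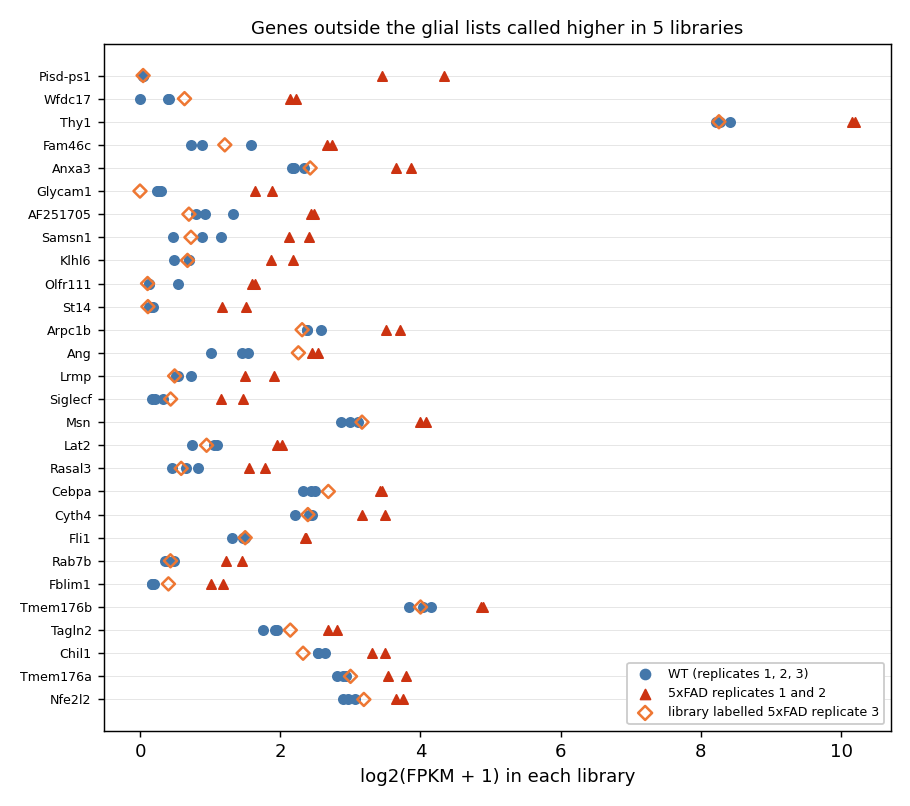
Level of the 28 genes outside the glial lists that were called higher over 5 libraries, as log2(FPKM + 1) on the horizontal axis, 1 symbol per library. Triangles (5xFAD replicates 1 and 2) lie to the right of circles (WT) for every gene, while the open diamond (library labelled 5xFAD replicate 3) lies above the WT values for 10, within them for 11 and below them for 7.

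Proteins that bind membranes or actin formed one group of these rises. Anxa3, a calcium-dependent phospholipid-binding annexin, stood at 4.05, 3.59 and 3.49 FPKM across WT, at 13.6 and 11.5 over 5xFAD replicates 1 and 2 and at 4.38 in the library labelled 5xFAD replicate 3. Its rise was 1.53 over 5 libraries (SE 0.14, limma adjusted p = 0.00247), from 3.71 ± 0.302 FPKM (SD, n = 3) to 12.6 ± 1.49 (SD, n = 2). The library labelled replicate 3 lay just above the WT values and far from the other 5xFAD libraries. Arpc1b, a subunit of the Arp2/3 complex that branches actin filaments, was at 5.01, 4.19 and 4.22 FPKM across WT, then 12.1, 10.4 and 3.97 across those labelled 5xFAD. Msn (moesin), which ties actin to the plasma membrane, was at 7.60, 6.29 and 6.95 FPKM across WT, then 15.9, 15.0 and 7.98. The 2 genes rose by 1.16 (SE 0.14, limma adjusted p = 0.00932) and 1.05 (SE 0.13, limma adjusted p = 0.00966) over 5 libraries, with replicate 3 at or near WT in both. Tagln2, an actin-binding transgelin, rose by 0.86 (SE 0.14) and Fblim1, a filamin-binding adaptor, by 0.92 (SE 0.16). Fblim1 passed the filter on low values only through 5xFAD replicates 1 and 2, so its call is no support.

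The other genes of the actin list did not share this size of change. Of 56 tested actin and adhesion genes, 37 had a positive difference over 5 libraries, 3 were called (Arpc1b, Msn and Tagln2), and the median was 0.06 beside -0.02 over all genes. Over all 14527 genes tested, 6646 had a positive difference and 1.18% were called higher, against which the counts of this and the following lists can be read. The annexin and S100 list stood higher, with 18 of 20 tested genes positive and a median of 0.39. Its called members were Anxa3 and S100a6, a small calcium-binding protein that is also in the reactive astrocyte list. S100a6 was at 9.74, 5.32 and 6.97 FPKM across WT, then 30.8, 19.7 and 7.98, again with the library labelled replicate 3 inside the WT range.

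Regulators of transcription formed a second group. Cebpa, a transcription factor of myeloid and fat cells, stood at 4.43, 4.65 and 4.02 FPKM across WT, at 9.94 and 9.68 over 5xFAD replicates 1 and 2, and at 5.44 in the library labelled 5xFAD replicate 3. It rose by 1.01 over 5 libraries (SE 0.12, limma adjusted p = 0.0107), 2.24-fold between group means. All 3 libraries labelled 5xFAD lay above all 3 WT libraries, with the library labelled replicate 3 nearer to WT. Fli1, an ETS factor of blood and endothelial cells, was at 1.48, 1.84 and 1.78 FPKM across WT, then 4.15, 4.13 and 1.83, and rose by 0.93 (SE 0.14). Nfe2l2, which encodes NRF2, the activator of antioxidant genes, was at 7.39, 6.86 and 6.44 FPKM across WT, then 11.5, 12.4 and 8.15. Nfe2l2 rose by 0.72 (SE 0.12, limma adjusted p = 0.0446), and its 6 values do not overlap between the genotypes. Its call ended with a pseudocount of 0.1, with no filter on low values and with quantile normalization. It also ended with a term for the replicate number, without WT replicate 2, without WT replicate 3 and without 5xFAD replicate 1 or 2.

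Genes of metal handling and oxidative defence, among them targets of NRF2, were followed as a list. Nfe2l2 was the only 1 of 47 tested that was called over 5 libraries, a share near the 1.18% of all genes called higher. Positive differences were found for 29 of the 47, with a median of 0.08. Ftl1, the light chain of the iron store ferritin, was at 138, 159 and 160 FPKM across WT, then 232, 242 and 164 (limma adjusted p = 0.0631 over 5 libraries). Prdx6, a peroxiredoxin, was at 52.3, 59.4 and 59.1 FPKM across WT, then 80.4, 87.2 and 58.5 (limma adjusted p = 0.0944). Trf, the iron carrier transferrin that oligodendrocytes also make, was at 151, 127 and 125 FPKM across WT, then 214, 207 and 134 (limma adjusted p = 0.0723). In these 3 abundant genes 5xFAD replicates 1 and 2 exceeded every WT value without passing the test, and replicate 3 stayed within or near WT.

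Secreted and membrane-bound proteins formed another group. Wfdc17, a whey acidic protein family member of myeloid cells, rose by 1.91 (SE 0.18, limma adjusted p = 0.00331) from 0.314, 0 and 0.331 FPKM in WT to 3.40 and 3.69, beside 0.553 in the library labelled 5xFAD replicate 3. Glycam1, a mucin-like ligand of selectin, rose by 1.497 (SE 0.16, limma adjusted p = 0.00573) from 0.184, 0.234 and 0.191 FPKM to 2.69 and 2.12, and was listed at 0 in that library. St14, the membrane serine protease matriptase, rose by 1.18 (SE 0.17) from 0.132, 0.119 and 0.0957 FPKM to 1.86 and 1.25, beside 0.0816. All 3 genes were near the bottom of the measured range in WT. Chil1, a chitinase-like secreted protein, stood higher at 4.83, 5.22 and 4.82 FPKM across WT, then 10.2, 8.87 and 4.01. Chil1 and Tmem176a fell outside the rule for named genes and are given because they completed the set of 28, after their values were seen.

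Ang, which encodes angiogenin, a secreted ribonuclease known for promoting vessel growth and cutting tRNA, was high in the library labelled 5xFAD replicate 3 as well. It stood at 1.92, 1.01 and 1.74 FPKM across WT and at 4.81, 4.46 and 3.79 in the 3 libraries labelled 5xFAD. Every 5xFAD value exceeded the highest WT value, the library labelled replicate 3 included. The difference was 1.08 over 6 libraries (SE 0.17, limma adjusted p = 1.00) and 1.16 over 5 (SE 0.19, limma adjusted p = 0.0394). The 5-library call ended without WT replicate 2, without WT replicate 3 and without 5xFAD replicate 1 or 2, with adjusted p-values up to 0.370, and also with a pseudocount of 0.1 or 0.5 and with no filter on low values.

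Rnase4, a secreted ribonuclease of the same locus, is in the homeostatic microglia list. It stood at 7.12, 9.91 and 6.99 FPKM across WT, at 15.3 and 16.04 over 5xFAD replicates 1 and 2 and at 8.33 in the library labelled 5xFAD replicate 3, where it lay within WT. Its difference of 0.90 over 5 libraries did not pass (SE 0.16, limma adjusted p = 0.0593). Ang and Rnase4 thus differed from each other in replicate 3. The pair shares a transcript start in the RefSeq table of build GRCm38.p6, and the 250 bases before that start are shown because both genes can be read from it (chr14:51090827-51091076, plus strand, 5′ to 3′; the deposited table itself was made on mm9).
Ang and Rnase4: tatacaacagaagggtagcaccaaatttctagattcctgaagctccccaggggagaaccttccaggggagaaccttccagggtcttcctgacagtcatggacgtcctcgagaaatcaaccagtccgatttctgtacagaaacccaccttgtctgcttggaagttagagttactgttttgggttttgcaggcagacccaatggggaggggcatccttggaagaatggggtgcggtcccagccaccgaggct
No base is capitalised, since no motif was searched. Rnase4 has a second start 4923 bases downstream in the same table, so the 2 genes need not share all of their output. The FPKM do not tell the starts apart. Of the 15 tested genes in the list of ribonucleases and their inhibitor, Ang was the only 1 called over 5 libraries, and the list median was 0.03.

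The 8 rises described next encode adaptors, receptors and regulators of small GTPases, grouped here after their values were seen. Samsn1 and Lat2, signalling adaptors of lymphoid and myeloid cells, rose by 1.43 (SE 0.22) and 1.03 (SE 0.17) over 5 libraries. Klhl6, a Kelch protein of B cells, rose by 1.396 (SE 0.17), from 0.626, 0.623 and 0.402 FPKM in WT to 3.54 and 2.65, beside 0.599 in the library labelled 5xFAD replicate 3. Siglecf, a receptor for sialic acid, rose by 1.08 (SE 0.17), and Lrmp, a membrane protein of the lymphoid endoplasmic reticulum, by 1.11 (SE 0.18). Siglecf passed the filter on low values only through 5xFAD replicates 1 and 2, so its call is no support. Rasal3, a Ras inhibitor, rose by 1.02 (SE 0.18), Cyth4, an activator of ARF proteins, by 0.97 (SE 0.15), and the endosomal GTPase Rab7b by 0.93 (SE 0.16). Klhl6 had the smallest limma adjusted p of the 8, 0.0105, and Rab7b the largest, 0.0482. The library labelled 5xFAD replicate 3 differed from the WT mean by -0.11 (Samsn1) to 0.20 (Siglecf) in these 8. The glial lists rose in the same 2 libraries, a contrast that was part of the choice of libraries. The homeostatic microglia median was 0.85 and 0.83 in 5xFAD replicates 1 and 2 and 0.02 in replicate 3. The part of the glial lists in these rises was not tested.

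The last of these low rises were grouped by level and not by role. Fam46c, a poly(A) polymerase that stabilises messenger RNA, rose by 1.64 (SE 0.25), from 1.99, 0.654 and 0.852 FPKM to 5.35 and 5.70, beside 1.31 in the library labelled 5xFAD replicate 3. Olfr111, annotated as an olfactory receptor, rose by 1.36 (SE 0.19), from 0.0893, 0.452 and 0.0915 FPKM to 2.04 and 2.12, beside 0.0776. AF251705 rose by 1.44 (SE 0.19), from 1.51, 0.905 and 0.732 FPKM to 4.42 and 4.58, beside 0.622. These 3 genes were low in every WT library and in replicate 3.

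Tmem176a and Tmem176b, a pair of membrane protein genes, rose together over 5 libraries. Tmem176b was at 16.8, 13.3 and 15.5 FPKM across WT, then 28.2, 28.7 and 15.0, a rise of 0.87 (SE 0.13, limma adjusted p = 0.0249). Tmem176a was at 6.42, 6.04 and 6.67 FPKM across WT, then 12.8, 10.6 and 7.02, a rise of 0.78 (SE 0.13, limma adjusted p = 0.0415). The Tmem176a call ended with no filter on low values, with quantile normalization and without any 1 of the WT replicates. It also ended without 5xFAD replicate 1 or 2. The Tmem176b call ended without WT replicate 2, without WT replicate 3 and without 5xFAD replicate 1 or 2. They are next to each other in the RefSeq gene order on opposite strands, and start windows of 300 bases share up to 219 bases. They were the only neighbouring pair among the 56 named genes that could be placed. The sources do not say whether counting used strand, so reads where the 2 genes overlap may have been assigned to either.

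Pisd-ps1, an annotated pseudogene of phosphatidylserine decarboxylase, had the largest rise of the 28, at 3.85 (SE 0.25). It stood at 0.0312, 0.0312 and 0.0313 FPKM across WT, at 19.1 and 9.92 over 5xFAD replicates 1 and 2 and at 0.0313 in the library labelled 5xFAD replicate 3. The near-equal low values of 4 libraries can be a floor of the estimate. Its copies gave no such pattern: Pisd, the enzyme gene, was at 22.6, 21.9 and 21.5 FPKM across WT, then 22.1, 23.6 and 23.1. Pisd-ps2 was at 13.4, 12.3 and 10.9 FPKM, then 14.2, 11.8 and 10.001. Pisd-ps3 stood at 52.7, 52.7 and 47.1 FPKM across WT and lower in all 3 libraries labelled 5xFAD, at 41.2, 38.7 and 45.1, without passing (-0.34 over 5 libraries, limma adjusted p = 0.477). Reads can be shared among such near-identical copies, so the value of each is uncertain.

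The library labelled 5xFAD replicate 3 was set apart for all called genes. For the 28 rises outside the glial lists, its difference from the WT mean ran from -0.32 to 0.92 with a median of 0.03, against a median of 1.09 in the 5-library comparison. For the 144 rises in the glial lists it ran from -0.60 to 0.72 with a median of 0.01, against 1.32. Thy1, 1 of the 28, and glial genes at WT level were part of the reason to set this library apart. The contrasts of Thy1 and of the glial genes therefore restate that choice. All genes of both sets were called with this library left out. Ang was highest of the 28 in this library, Wfdc17 next at 0.37, and AF251705 lowest. Its log2 values correlated with those of WT replicates 1, 2 and 3 at 0.982, 0.989 and 0.990. With 5xFAD replicates 1 and 2 the correlations were 0.976 and 0.985. Over all pairs of libraries the correlation ran from 0.969 to 0.990 across genes, which are not independent.

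**Figure D2:**
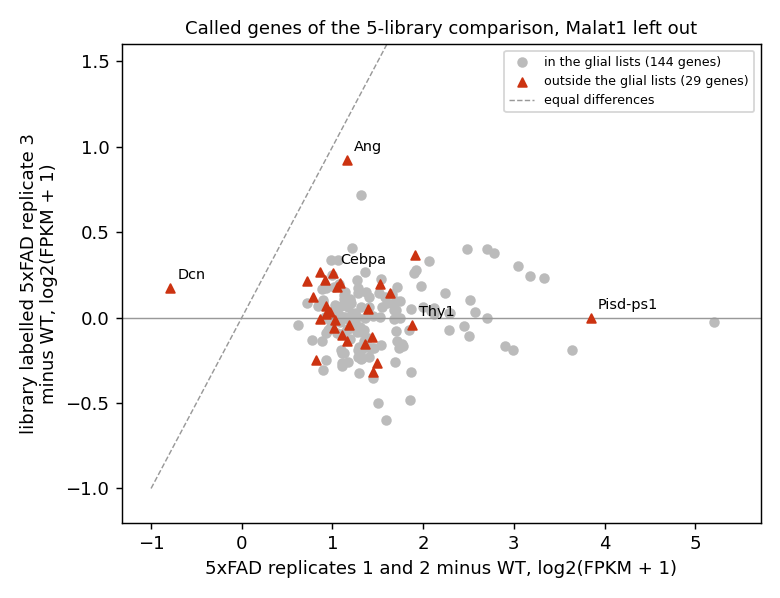
Each point is a gene called over 5 libraries, Malat1 left out, with its 5-library difference on the horizontal axis and the difference of the library labelled 5xFAD replicate 3 from the WT mean on the vertical axis, both in log2(FPKM + 1). The 144 genes of the glial lists and the 29 others spread along 0 on the vertical axis, and Ang at 0.92 lies nearest to the dashed line of equal differences.

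Falls outside the glial lists were few. Dcn, which encodes decorin, a collagen-binding proteoglycan of meninges and perivascular fibroblasts, stood at 27.2, 22.7 and 26.3 FPKM across WT and at 15.1 and 13.4 in 5xFAD replicates 1 and 2. It was at 28.7 FPKM in the library labelled 5xFAD replicate 3, above every WT value. Dcn fell by 0.79 over 5 libraries (SE 0.13, limma adjusted p = 0.0355), and its difference over 6 libraries was -0.47 (SE 0.25, limma adjusted p = 1.00). Its call held in 1 of the 5 fits that left out a further library, the one without WT replicate 2, and the highest adjusted p was 0.326. The call also ended with no filter on low values and with quantile normalization.

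Several genes that did not pass had the same order of libraries. Ogn, a small leucine-rich proteoglycan like Dcn, was at 4.40, 3.56 and 3.91 FPKM across WT, then 2.003, 1.90 and 6.17 (-0.75 over 5 libraries, limma adjusted p = 0.0703). Nr2f2, an orphan nuclear receptor of vein, mesenchyme and interneuron development, was at 9.72, 10.6 and 11.5 FPKM across WT, then 6.59, 5.27 and 12.6 (-0.75, limma adjusted p = 0.0654). Npr3, the clearance receptor for natriuretic peptides, was at 6.09, 5.93 and 6.54 FPKM across WT, then 3.55, 4.18 and 6.68 (-0.56, limma adjusted p = 0.155). In all 3 genes the library labelled replicate 3 lay above the WT values. That 5xFAD replicates 1 and 2 lay below every WT value was a condition of the choice, met by 7.5% of all genes tested. Dlk1, a Notch-like membrane protein, differed by -0.998 but spread over 2.05, 2.26 and 4.12 FPKM in WT, and replicate 3 held 3.15 FPKM beside 0.955 and 0.762.

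The fibroblast and matrix list as a whole had a median of -0.05 over 5 libraries and 0.02 over 6, with 34 of 54 tested genes lower over 5 libraries and Dcn its called member. Its median by library was 0.19, -0.05 and -0.16 across WT, -0.13 and -0.01 over 5xFAD replicates 1 and 2, and 0.16 for replicate 3, relative to the WT mean. The list was thus highest in WT replicate 1 and in the library labelled 5xFAD replicate 3, the 2 libraries with the most choroid plexus RNA. The part of such tissue in the lower Dcn was not tested.

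**Figure D3:**
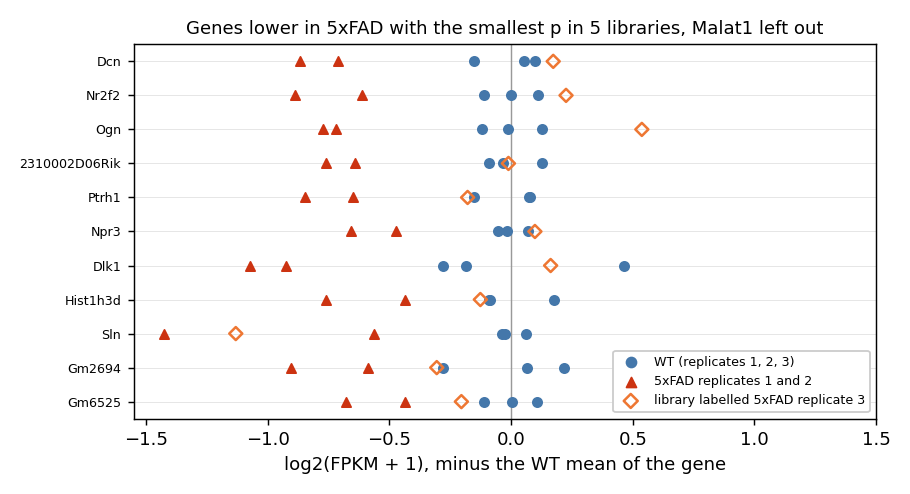
Level of 11 genes lower in 5xFAD with the smallest p over 5 libraries, Malat1 left out, as log2(FPKM + 1) minus the WT mean of each gene, 1 symbol per library. Dcn was the one called, and the open diamond (library labelled 5xFAD replicate 3) lies above the WT circles for Dcn, Nr2f2, Ogn and Npr3.

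Genes that separated the genotypes under the labels as given were sought in the 6 libraries. The 3 values of each group did not overlap for 423 genes higher in 5xFAD (2.92%) and 398 lower (2.74%). Of these, 363 and 394 were outside the glial lists. Groups of 3 can separate in either direction without a genotype difference, so the counts are not read as a result. Apart from Malat1 none passed, and the smallest limma adjusted p among the rest was 1.00. After Ang, the smallest p on the higher side belonged to Anxa2, a membrane-binding annexin, at 5.29, 4.38 and 5.27 FPKM across WT and 8.19, 9.43 and 7.00 across 5xFAD (0.62, SE 0.13). Plekho1, a regulator of kinase signalling and bone formation, stood at 10.2, 11.5 and 9.85 FPKM across WT and 16.2, 19.3 and 13.8 across 5xFAD (0.59, SE 0.13). Cd34, a sialomucin of endothelial and progenitor cells, stood at 11.4, 12.6 and 11.7 FPKM across WT and 17.1, 19.2 and 15.0 across 5xFAD (0.49, SE 0.11). In these 3 the library labelled replicate 3 was the lowest of the 5xFAD libraries. Its place above every WT library was a condition of the choice. Cyr61, a matrix protein induced by growth factors, stood at 1.68, 1.31 and 1.502 FPKM across WT and 2.97, 3.75 and 2.21 across 5xFAD (0.66, SE 0.17). Oaf, Glipr2, Ppap2c and 1700123M08Rik differed by 0.44, 0.67, 0.56 and 0.63. In Tmem179b and the gene listed as Stra13 the library labelled replicate 3 was the highest of all 6, at 4.87 and 10.3 FPKM.

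On the lower side, Sln, which encodes sarcolipin, a small inhibitor of the calcium pump SERCA, stood at 1.80, 1.64 and 1.62 FPKM across WT and at 0, 0.817 and 0.226 in 5xFAD (-1.04, SE 0.22). Hes1, a repressor induced by Notch, stood at 7.79, 5.96 and 6.68 FPKM across WT and 5.21, 3.87 and 4.30 across 5xFAD (-0.52, SE 0.14). Ghr, the growth hormone receptor, stood at 4.05, 3.06 and 3.58 FPKM across WT and 2.62, 2.30 and 1.99 across 5xFAD (-0.47, SE 0.14). These genes were chosen with all 3 libraries labelled 5xFAD below WT, so the library labelled replicate 3 lay there by construction. In Sln and Hes1 it lay between the other 2 of its label and in Ghr below them. Alg12, a mannosyltransferase that builds the precursor of N-linked glycans, was even within groups, at 5.01, 4.90 and 5.03 FPKM across WT and 3.58, 3.97 and 3.59 across 5xFAD (-0.34, SE 0.10). Trpc4, a cation channel, stood at 29.5, 25.5 and 31.2 FPKM across WT and 24.3, 20.1 and 22.8 across 5xFAD (-0.34, SE 0.11). Figf, a vascular growth factor, and Myl4, a myosin light chain, differed by -0.60 and -0.41. None of these passed, and their limma adjusted p was 1.00.

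**Figure D4:**
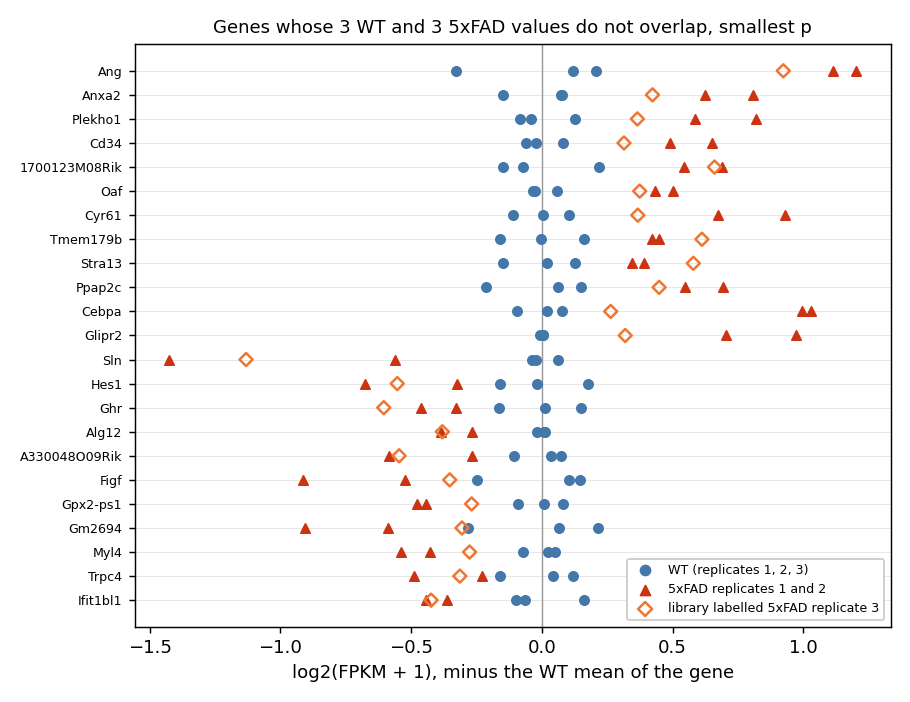
The 12 genes higher and 11 genes lower in 5xFAD with the smallest p among those whose 3 WT and 3 5xFAD values do not overlap, Malat1 left out, as log2(FPKM + 1) minus the WT mean of each gene, 1 symbol per library. The open diamond (library labelled 5xFAD replicate 3) lies on the 5xFAD side by construction, close to the triangles for Ang, Hes1 and Alg12 and close to WT for Cebpa.

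The pathways around these single genes were followed as lists, given as counts and medians without a test of the list. The Notch list had 18 of 29 tested genes positive over 5 libraries with a median of 0.07, and Hes5, a Notch target like Hes1, was at 5.88, 3.67 and 4.88 FPKM across WT, then 3.98, 1.70 and 4.14. Growth hormone and insulin-like signalling had 12 of 28 positive and a median of -0.01. Igfbp5, a binding protein of insulin-like growth factors, stood at 37.0, 54.6 and 42.1 FPKM across WT and 62.0, 79.3 and 61.0 across 5xFAD, without overlap and without passing (0.66 over 5 libraries, limma adjusted p = 0.299). Assembly of N-glycans had 13 of 32 positive and a median of -0.02, so the lower Alg12 was not shared by its list. Calcium pumps, stores and buffers had 9 of 40 positive and a median of -0.08. None of these 4 lists had a called member.

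Neuronal lists held no called gene, and most of their medians were slightly below 0 over 5 libraries. Inhibitory neuron markers had the lowest, with 4 of 29 positive and a median of -0.24 beside -0.02 over all genes. Their median by library was -0.16, 0.09 and 0.13 across WT, -0.27 and -0.20 over 5xFAD replicates 1 and 2, and -0.02 for the library labelled replicate 3, so WT replicate 1 lay close to 5xFAD. Gad1, which makes the transmitter GABA, was at 102, 126 and 115 FPKM across WT, then 83.2, 94.1 and 108 (-0.36, limma adjusted p = 0.606). Erbb4, the neuregulin receptor of interneurons, was at 19.2, 23.3 and 19.4 FPKM across WT, then 16.4, 16.3 and 20.1 (-0.31, limma adjusted p = 0.764). Sst, the peptide somatostatin, was at 338, 236 and 288 FPKM across WT, then 228, 192 and 287 (-0.44, limma adjusted p = 0.742). In these 3 genes 5xFAD replicates 1 and 2 lay below every WT value, and replicate 3 lay within WT.

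GABA and glycine receptors had 2 of 18 positive and a median of -0.17, and glutamate receptors had 4 of 27 positive and a median of -0.08. Gabra5, the receptor subunit of extrasynaptic inhibition in the hippocampus, stood at 57.7, 58.0 and 64.9 FPKM across WT and 53.3, 51.2 and 53.7 across 5xFAD, lower in all 3. Gria3, an AMPA receptor subunit, stood at 87.7, 76.5 and 76.5 FPKM across WT and 76.1, 67.2 and 74.4 across 5xFAD, also without overlap. Limma adjusted p was 1.00 for both over 5 libraries. Postsynaptic density genes had 4 of 37 positive, calcium and sodium channels 5 of 33, and synaptic vesicle genes 8 of 44, with medians of -0.07, -0.12 and -0.06. Potassium channels (15 of 52), neuromodulator receptors (16 of 51) and markers of hippocampal subfields (13 of 40) had medians of -0.07, -0.13 and -0.07. Neuronal cytoskeleton genes were even, with 18 of 40 positive and a median of -0.02. Vgf, a neuropeptide precursor induced by activity, was at 57.0, 49.9 and 46.4 FPKM across WT, then 38.1, 38.5 and 50.7 (-0.40, limma adjusted p = 0.381).

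Ribosomal protein and cholesterol genes had medians above 0. Cytosolic ribosomal proteins had 74 of 78 positive and a median of 0.27 over 5 libraries, and none was called. Their median by library was 0.16, -0.24 and 0.11 across WT, 0.27 and 0.26 over 5xFAD replicates 1 and 2, and -0.04 for the library labelled replicate 3. The list was lowest in WT replicate 2, the library of lowest relative depth, and its median was 0.14 without that library. Oxidative phosphorylation genes were likewise lowest there, at -0.25, with 49 of 77 positive and a median of 0.06 over 5 libraries, which turned to -0.08 without WT replicate 2. Cholesterol synthesis and lipid transport had 35 of 44 positive and a median of 0.17. Fdps, an enzyme of isoprenoid synthesis, was at 29.8, 24.6 and 30.7 FPKM across WT, then 46.4, 38.0 and 30.7 (0.56, limma adjusted p = 0.225). Sqle, squalene epoxidase, was at 22.7, 21.4 and 20.6 FPKM across WT, then 31.9, 27.9 and 21.0 (0.45, limma adjusted p = 0.212).

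Glycolysis and sugar uptake had 9 of 29 positive and a median of -0.03. Its called member was Hk2, a hexokinase that is also in the homeostatic microglia list, at 1.80, 1.43 and 1.58 FPKM across WT, then 4.32, 3.97 and 2.28 (a rise of 0.99 over 5 libraries, SE 0.14, limma adjusted p = 0.0232). Slc16a3, a lactate exporter, stood at 0.964, 1.13 and 0.902 FPKM across WT and 1.67, 2.07 and 1.32 across 5xFAD, without overlap and without passing (limma adjusted p = 0.361). Heat shock and unfolded protein genes had 17 of 49 positive and a median of -0.03. Hspa5, the chaperone BiP, was at 93.6, 111 and 98.5 FPKM across WT, then 74.4, 86.4 and 113 (-0.33, limma adjusted p = 0.711). Proteasome genes (21 of 36 positive), autophagy genes (9 of 28) and circadian clock genes (3 of 23) had medians of 0.02, -0.03 and -0.08, with no called member.

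**Figure D5:**
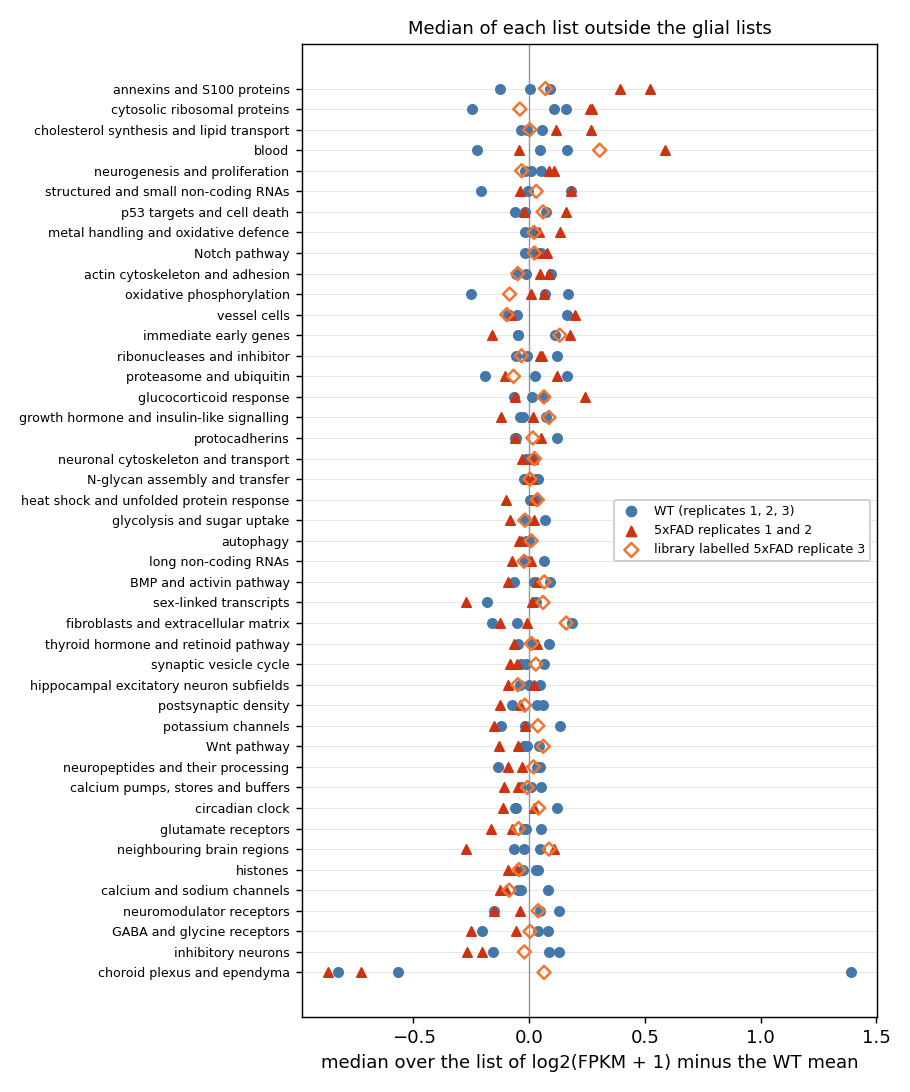
Median over each list outside the glial lists of log2(FPKM + 1) minus the WT mean of each gene, 1 symbol per library, for lists with at least 5 tested genes. Choroid plexus genes spread widest, with WT replicate 1 at 1.39, while inhibitory neuron genes of 5xFAD replicates 1 and 2 lie at -0.27 and -0.20 and annexins and S100 proteins at 0.39 and 0.52.

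Markers of tissue next to the hippocampus varied by library more than by genotype. Choroid plexus and ependyma had 28 of 31 tested genes lower over 5 libraries with a median of -0.83, which was -0.07 without WT replicate 1. Ttr, the thyroid hormone carrier of choroid plexus, ranged from 32.9 FPKM in WT replicate 2 to 2758 in WT replicate 1. Prlr, the prolactin receptor, was at 15.9, 1.24 and 2.47 FPKM across WT, then 0.983, 1.12 and 4.72, and Htr2c, a serotonin receptor that choroid plexus also makes, at 20.8, 11.4 and 12.1, then 8.01, 9.35 and 13.2. Both followed the order of Ttr at the top, with WT replicate 1 first and the library labelled 5xFAD replicate 3 second. Vessel cell genes had 24 of 43 positive and a median of 0.04, and genes of neighbouring brain regions 9 of 26 and -0.10, with no called member in either.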

How the data were processed

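RNA was measured in 6 hippocampal libraries, 3 labelled WT and 3 labelled 5xFAD, grouped by genotype and replicate number from the labels. The gene table holds FPKM as deposited by the authors. Per the submitters' processing notes the build was mm9 and the tool DESeq, without a version; the aligner, quantifier and annotation, and whether strand was used, are not stated. Read depth is unknown, because FPKM carries no count, so relative depth was read from ratios of values under 0.3 FPKM.

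Genes with a mean of at least 0.5 FPKM were tested as log2(FPKM + 1) with limma 3.58.1 (mean trend, two-sided, Benjamini-Hochberg over all genes tested) in R 4.3.3. The fit was tested on simulated data first. The 5-library comparison left out the library labelled 5xFAD replicate 3. The members, the 8 glial lists and the 46 other lists were chosen with earlier results of these data known, and lists are described without a test.

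Named genes were Thy1, App, Gigyf2 and Malat1, and, outside the glial lists and with a mean of at least 1 FPKM in the higher group, the 12 higher and 12 lower of smallest p whose groups did not overlap in 6 libraries and the 25 largest called rises over 5 libraries. With fewer than 5 falls called, the 12 falls of smallest p were taken instead. For these rises and falls, too, groups that did not overlap in the 5 libraries were a condition. Up to 5 members of each list with the smallest p were added, together with any called member. Neat1, Hes5, Ddx3y and Ttr were chosen after their values were seen, unless the list rule took them. RefSeq tables of build GRCm38.p6 gave start positions and gene order only, and 1 gene of the transgene-linked list is not reported here.

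Alternatives were the replicate block, other pseudocounts and filters, no mean trend, array quality weights, quantile and median of ratios scaling, each library left out in turn, and a term for sex-linked transcripts added after seeing the data.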

Additional observations from a re-analysis of the deposited data

How the results depend on the processing

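Over 6 libraries, Malat1 was the 1 call under every alternative, the replicate block included (1 call), except without 5xFAD replicate 3, where 174 genes were called. With 1 library left out, rises outside the glial lists ranged from 0 to 28 there and falls from 1 to 2. Over 5 libraries the 174 calls became 201 with the replicate block, 157 of them shared, and the 28 rises outside the lists became 38, 22 of them shared. The 6 rises not called under the block were Fblim1, Lat2, Nfe2l2, Rab7b, Rasal3 and Siglecf. The labels do not say whether the replicate numbers pair the samples. Same-numbered libraries correlated at 0.415, 0.279 and 0.040 in their deviations from the group means, which does not settle the pairing. Replicates 1 and 2 of each genotype correlated best with their own number, and replicate 3 of each did not. Rises outside the lists numbered 16 with a pseudocount of 0.1, 17 with a mean of at least 2 FPKM, 48 without the mean trend and 66 with array quality weights, and falls 1 with no filter on low values, 6 with array quality weights and 4 with the term for sex-linked transcripts. With 1 more library left out, all calls ranged from 35 to 174, rises outside the lists from 3 to 34 and falls from 1 to 3. Leaving out 5xFAD replicate 1 or 2 there leaves 1 such library, which is assumed to vary like WT. The cause of these changes was not tested. Of the 28 rises, 11 kept their call in every setting that tested them other than leaving out a library. No called value changed sign. FPKM gives no read depth, so values under 1 FPKM carry no counting interval.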
